A study of Mus musculus with 4 samples.

Results

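Fast-twitch fibres are the quick, strong and easily tired cells of skeletal muscle, and 10 genes whose proteins build or serve their contractile apparatus are described here in brown adipose tissue (BAT) of mice with and without Sox4 deletion. The genes are Tnnc2, Tnni2, Tnnt3, Mylpf, Myl1, Myh1, Myh2, Myh4, Actn3 and Pvalb, 10 of the 55287 gene symbols in the deposited values. They were chosen by their levels in these same libraries, with the difference between the genotypes known, so their levels are given as a description and no test of them is made. RNA sequencing was performed on BAT of 4 male mice aged 15 weeks, with 1 library per mouse. The 2 control littermates carried the floxed alleles and are called Sox4f/f, although the labels name their genotype WT. The other 2 mice, Sox4-MKO, came from a cross of Sox4f/f with Myf5-Cre mice. In such mice the recombinase is made where the Myf5 gene is or was active, which includes the precursors of brown adipocytes and those of skeletal muscle, so a deletion made in this way is not limited to fat. Values are in FPKM, a count of fragments scaled to transcript length and to the library's mapped fragments, and can therefore be compared between genes of different length.

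Muscle contracts when calcium binds troponin on the thin filament and myosin heads then pull on actin. Many parts of this machine, the troponins and myosin chains among them, are made in a fast and a slow form from separate genes, while others such as skeletal actin are shared. A fibre is typed by its myosin heavy chain. In mice Myh4 encodes the chain of the fastest fibres (type IIB), Myh1 that of type IIX, Myh2 that of type IIA and Myh7 that of slow fibres (type I). Brown adipocytes and skeletal muscle share precursors that have expressed Myf5, and interscapular brown fat lies next to the muscles of the back.

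Sox4, the deleted gene, was at 1.98 and 1.06 FPKM in the 2 Sox4f/f mice and, under the Sox4-MKO label, at 0.98 and 3.06 FPKM. Its mean level was thus no lower under that label, with mouse 1 just below both controls and mouse 2 above both. These values rest on an estimated 61 to 244 fragments each. Exons of Gm26735 on the opposite strand cover 54.6% of the Sox4 transcript. In younger Sox4-MKO mice the paper reports strongly reduced SOX4 protein in BAT. All directions given here are those of the labels. The brown adipocyte gene Ucp1, which uncouples respiration to make heat, had 1935 and 1814 FPKM against 733 and 1105 FPKM. Adiponectin (Adipoq), a marker of all adipocytes, had 989 and 821 FPKM against 711 and 1123 FPKM, so fat was sampled in all 4 libraries. Whether other tissue was sampled with it cannot be read from these genes and was not tested. The depth was estimated at 12200000 to 16600000 fragments per library. The values of the 10 genes then rest on between 153 and 91641 fragments each, and counting error alone is 0.33% to 8.08% of a value.

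The 3 fast myosin heavy chain genes lie side by side on chromosome 11 (GRCm38, plus strand), with Myh2 from 67171027 to 67197517, Myh1 from 67200052 to 67224575 and Myh4 from 67238029 to 67260446. Gaps of 2534 and 13453 bases separate them. They are shown first because the libraries differed in which of the 3 was the most abundant, and because reads can be split between near-identical genes. The sequences before their RefSeq start sites (GRCm38.p6) follow, at chr11:67170777-67171026, chr11:67199852-67200051 and chr11:67237562-67237811. For Myh1 the stretch ends 50 bases early, where the GENCODE gene begins. Capitals mark matches to 4 motifs on either strand: the E-box (CANNTG), the MEF2 site, the CArG box and TATAAA. In Myh1 and Myh4 a TATAAA on the minus strand lies within the MEF2 match. A plus-strand TATAAA at -32 to -27 in Myh1 and another at 11 to 16 in Myh2, counted from the RefSeq start site, lie outside the printed stretches. For Myh4 the GENCODE gene begins 217 bases after the RefSeq start site.
Myh2: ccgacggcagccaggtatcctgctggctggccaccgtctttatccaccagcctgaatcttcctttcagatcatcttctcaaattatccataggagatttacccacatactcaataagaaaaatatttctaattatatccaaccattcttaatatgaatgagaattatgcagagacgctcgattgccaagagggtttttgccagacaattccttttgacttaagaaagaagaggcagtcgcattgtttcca
Myh1: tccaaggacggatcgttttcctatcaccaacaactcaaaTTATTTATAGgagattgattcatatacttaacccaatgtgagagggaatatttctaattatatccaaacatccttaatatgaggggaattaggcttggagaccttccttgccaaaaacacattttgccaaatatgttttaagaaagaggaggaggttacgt
Myh4: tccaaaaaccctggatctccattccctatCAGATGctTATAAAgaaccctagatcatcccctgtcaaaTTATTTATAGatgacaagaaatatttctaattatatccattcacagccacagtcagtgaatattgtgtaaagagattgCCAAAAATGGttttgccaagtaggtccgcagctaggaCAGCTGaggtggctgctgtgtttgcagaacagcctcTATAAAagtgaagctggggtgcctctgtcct

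Over the 250 bases before each start site the 3 genes were 54.1% to 63.8% identical where they align. They share a run of 20 bases, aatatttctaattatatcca, which begins at -130 in Myh2, -165 in Myh1 and -163 in Myh4, counted from the RefSeq start site. It occurs in 3 of the 32851 RefSeq promoter windows, those of these genes. Of the 10 genes, 7 had an entry among these windows of 250 bases before and 50 after the start, and Tnni2, Tnnt3 and Actn3 had none. The MEF2 motif, named for a family of muscle transcription factors, matched at -211 to -202 in Myh1, at -182 to -173 in Myh4 and in 1 of the 2 Pvalb windows, and 3.19% of all windows hold it. The CArG box, read by serum response factor, matched in Myh4 alone among the 7 genes, and 1.63% of all windows hold it. E-boxes, read by MyoD and its relatives among many others, were in 5 of the 8 windows against 72.3% of all windows, and TATAAA was in 4 against 13.6%. A match is a description of letters and not of binding.

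The coding sequence of Myh2 was 91.0% identical to that of Myh1 and 88.2% to that of Myh4, and those of Myh1 and Myh4 were 90.1% identical. Identity to the slow Myh7 was 77.2% to 77.6%. Of all stretches of 100 coding bases, 8.22% of Myh2, 9.31% of Myh1 and 2.64% of Myh4 also occur in another of the 3, and fragments from such stretches cannot be assigned by sequence alone. The 60 aligned coding bases in which they differ most follow, with the 25 positions at which they are not all alike in capitals. Each stretch joins 2 exons, at chr11:67190410-67191383, chr11:67215944-67217499 and chr11:67254103-67254493.
Myh2: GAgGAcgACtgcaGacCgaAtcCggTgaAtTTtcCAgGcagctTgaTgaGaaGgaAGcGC
Myh1: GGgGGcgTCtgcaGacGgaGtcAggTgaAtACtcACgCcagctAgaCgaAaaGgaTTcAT
Myh4: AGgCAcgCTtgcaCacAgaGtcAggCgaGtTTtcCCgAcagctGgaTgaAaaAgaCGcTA

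All 10 genes were detected in all 4 libraries, and their levels followed the same order of libraries at 9 of them: lowest in Sox4f/f mouse 1, then Sox4f/f mouse 2, then Sox4-MKO mouse 2, and highest in Sox4-MKO mouse 1. The exception was Myh4. Summed over the 10 genes, the Sox4f/f mice had 215 and 656 FPKM and the mice labelled Sox4-MKO 11765 and 2195 FPKM. This was 0.037% and 0.12% of all FPKM in the former and 2.38% and 0.465% in the latter. The mean was 436 ± 312 FPKM against 6980 ± 6767 FPKM (SD, n = 2 mice each), a ratio of 16.0 that was 5.04 without Sox4-MKO mouse 1, 27.0 without Sox4-MKO mouse 2, 10.6 without Sox4f/f mouse 1 and 32.5 without Sox4f/f mouse 2. The SD was large against the mean in Sox4f/f and nearly as large as the mean under the Sox4-MKO label, and 2 mice against 2 cannot give an exact permutation p below 0.333. The cells of the tissue that made this RNA were not identified. Nor can their number be told apart from the RNA made per cell.

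**Figure D1:**
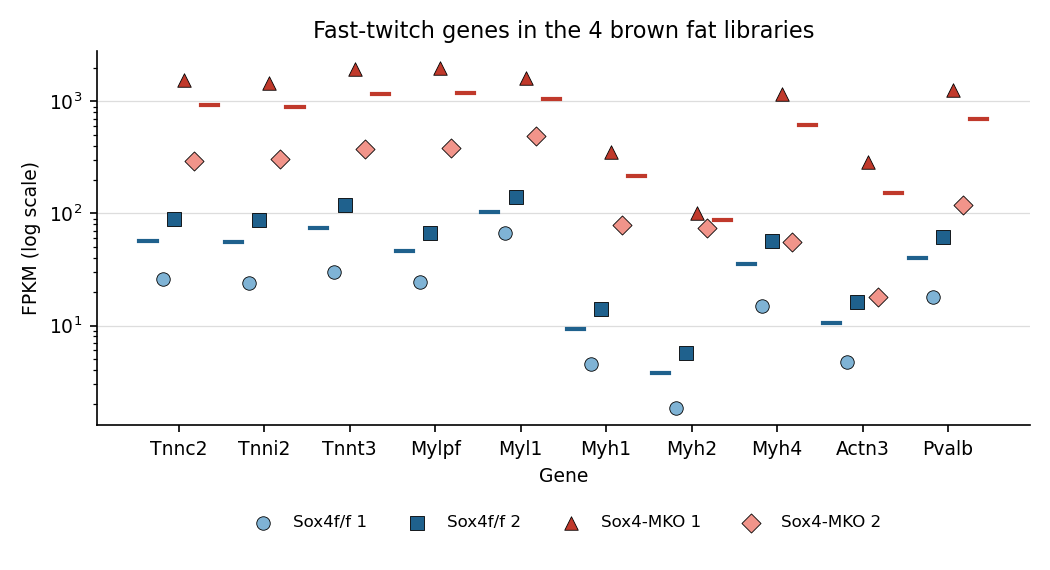
Level of each of the 10 fast-twitch genes in the 4 libraries, in FPKM on a log axis, 1 point per mouse, with short bars at the mean of the 2 Sox4f/f libraries (blue) and of the 2 libraries labelled Sox4-MKO (red). Sox4-MKO mouse 1 is highest at all 10 genes, and Sox4-MKO mouse 2 meets Sox4f/f mouse 2 at Myh4 and comes close to it at Actn3.

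At 9 of the 10 genes both libraries labelled Sox4-MKO lay above both Sox4f/f libraries. That order was seen at 21.7% of the 12877 genes tested, those whose FPKM averaged over 1 in either genotype or both. The ratio of the genotype means was at least 8 at all 10 genes, as it was at 2.73% of the genes tested. Since the genes were picked for this contrast, nothing is read from either count. All 10 also exceeded an averaged 1 FPKM in Sox4f/f alone, so none entered through the higher group.

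The troponins are the calcium switch of the thin filament. Tnnc2, on chromosome 2 from 164777161 to 164779967, encodes the calcium-binding subunit of fast fibres. It had 25.8 and 88.4 FPKM in the controls, and 1548 and 295 FPKM under the Sox4-MKO label. Sox4-MKO mouse 1 stood far above the other 3 mice, and the other Sox4-MKO library was 3.34-fold above the higher Sox4f/f library. Exons of Ube2c on the opposite strand cover 84.6% of the longest coding transcript of Tnnc2, but Ube2c was listed at only 0.82 to 3.27 FPKM.

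Tnni2, the inhibitory subunit, lies on chromosome 7 from 142441808 to 142444410. It had 23.8 and 86.9 FPKM against 1473 and 304 FPKM. Tnnt3, which ties the complex to tropomyosin, begins 54425 bases further on the same strand and ends at 142516009. It had 30.3 and 119 FPKM against 1961 and 375 FPKM, the most of the 3 troponins in every library. The 3 genes thus kept nearly the same proportions: the ratio of the genotype means was 16.1 for Tnnc2, 16.1 for Tnni2 and 15.6 for Tnnt3 (5.17, 5.49 and 5.02 without Sox4-MKO mouse 1), and the ratio of Sox4-MKO mouse 1 to mouse 2 was between 4.85 and 5.24.

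The light chains sit on the neck of the myosin head. Mylpf encodes the regulatory light chain of fast fibres (chromosome 7, 127208890 to 127214298) and had 24.6 and 67.6 FPKM against 1994 and 383 FPKM. Its ratio of means was 25.8 with all libraries, the highest of the 10 genes, and 8.32 without Sox4-MKO mouse 1, below those of Myh2 and Myh1. Myl1 encodes the essential light chain (chromosome 1, 66924295 to 66945404) and had 66.5 and 140 FPKM against 1619 and 492 FPKM. Its ratio of 10.2 was the lowest with all libraries. Without Sox4-MKO mouse 1 it was 4.76, and Myh4, Actn3 and Pvalb were lower. Myl1 was the most abundant of the 10 genes in both Sox4f/f libraries and made up 30.9% and 21.3% of their sum, against 13.8% and 22.4% in the libraries labelled Sox4-MKO. Mylpf made up 11.4% and 10.3%, against 16.9% and 17.5%.

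The heavy chains are the motor itself. Myh4 had 15.0 and 56.5 FPKM in the controls, and 1165 and 55.2 FPKM under the Sox4-MKO label, so the groups overlapped. Its ratio of means of 17.1 rested on Sox4-MKO mouse 1 and was 1.54 without that mouse. Myh1 had 4.59 and 13.9 FPKM against 355 and 79.6 FPKM, with no overlap. Exons of Myhas on the opposite strand cover 8.47% of its longest coding transcript. Myh2 had 1.83 and 5.66 FPKM against 100 and 74.7 FPKM, the lowest level of the 10 genes in both Sox4f/f libraries. It is also the gene at which the libraries labelled Sox4-MKO were nearest to each other. Its ratio of means was 23.4. It was 19.96 without Sox4-MKO mouse 1, 15.5 without Sox4f/f mouse 1 and 47.8 without Sox4f/f mouse 2.

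Actn3 encodes the alpha-actinin that anchors thin filaments at the Z line of fast fibres (chromosome 19, 4861216 to 4877909). It had 4.78 and 16.2 FPKM in the controls, and 286 and 18.0 FPKM under the Sox4-MKO label. Sox4-MKO mouse 2 was 1.11-fold above Sox4f/f mouse 2, and the ratio of means of 14.5 was 1.72 without Sox4-MKO mouse 1. Pvalb encodes parvalbumin, a calcium buffer that speeds relaxation (chromosome 15, 78191114 to 78206400). It had 17.8 and 61.7 FPKM against 1263 and 118 FPKM. Its ratio of means of 17.4 was 2.98 without Sox4-MKO mouse 1.

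The averaged levels ran from 3.74 ± 2.71 FPKM for Myh2 to 103 ± 51.9 FPKM for Myl1 in Sox4f/f, and from 87.6 ± 18.2 FPKM for Myh2 to 1188 ± 1139 FPKM for Mylpf in the libraries labelled Sox4-MKO. In neither genotype did neighbours in this order differ by more than the larger of their SDs.

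The 2 libraries of a genotype also differed from each other, in a regular way in Sox4f/f and in an irregular one under the Sox4-MKO label. Sox4f/f mouse 2 was above mouse 1 at all 10 genes, by 2.103-fold (Myl1) to 3.93-fold (Tnnt3) with a median of 3.41. Over all genes tested the median of this ratio was 0.986. Sox4-MKO mouse 1 was above mouse 2 at all 10 genes as well, by 1.34-fold (Myh2) to 21.1-fold (Myh4) with a median of 5.21, against a median of 1.08 over all genes tested. The SD of these ratios over the 10 genes was 0.26 on the log2 scale in Sox4f/f and 1.14 under the Sox4-MKO label.

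**Figure D2:**
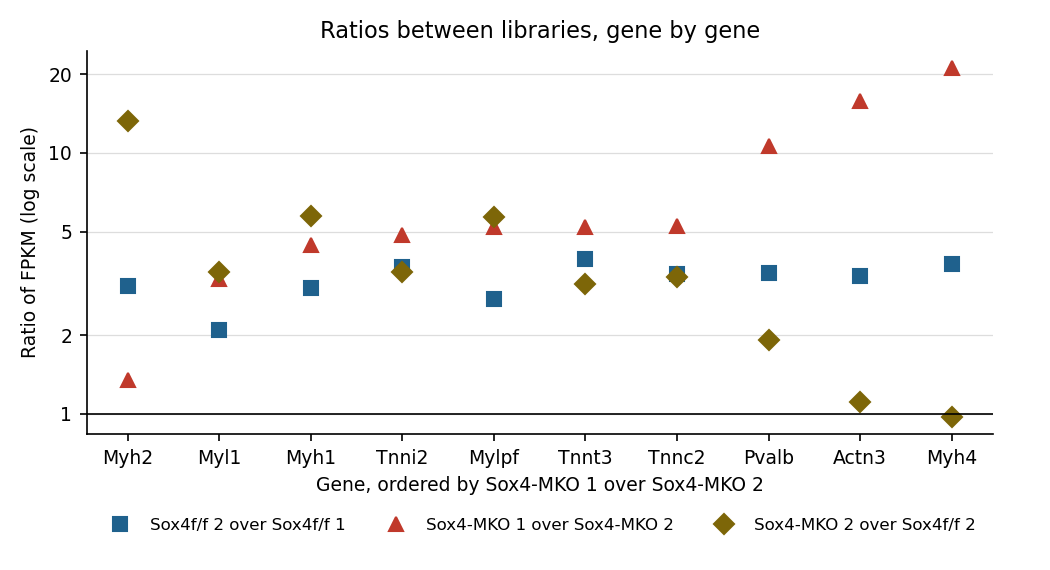
Ratios of FPKM between libraries for each of the 10 genes, on a log axis with a line at 1: Sox4f/f mouse 2 over mouse 1 (squares), Sox4-MKO mouse 1 over mouse 2 (triangles) and Sox4-MKO mouse 2 over Sox4f/f mouse 2 (diamonds). The squares stay between 2.103 and 3.93, the triangles climb from 1.34 at Myh2 to 21.1 at Myh4, and the diamonds run from 13.2 at Myh2 down to 0.976 at Myh4.

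Sox4-MKO mouse 2 therefore held a different mixture of the 10 genes, not only less of it than mouse 1. Against Sox4f/f mouse 2 its Myh2 was 13.2-fold, Myh1 5.72-fold and Mylpf 5.67-fold higher, the troponins and Myl1 were 3.15-fold to 3.51-fold higher, Pvalb was 1.92-fold higher, and Actn3 and Myh4 were near 1. Sox4-MKO mouse 1 showed less of this unevenness, from 11.6-fold (Myl1) to 29.5-fold (Mylpf) above Sox4f/f mouse 2. With a single mouse of each kind, the differences between mice have no replicate.

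The myosin heavy chains, by which fibres are typed, give this as shares of RNA, which are not shares of fibres. Of the summed FPKM of Myh4, Myh1, Myh2 and the slow Myh7, Myh4 took 66.7% and 68.1% in Sox4f/f and 63.7% in Sox4-MKO mouse 1, but 21.7% in Sox4-MKO mouse 2. Myh1 took 20.3%, 16.8% and 19.4% in the former 3 and 31.4% in the last. Myh2 took 8.12%, 6.82% and 5.50%, and 29.4% in the last. Myh7 took 4.83%, 8.25% and 11.4%, and 17.5% in the last. The summed level of the 4 genes was 22.6, 82.9, 1829 and 254 FPKM in the same order, so Sox4-MKO mouse 1 had a Myh4 share close to those of the Sox4f/f libraries at a far higher level, with more Myh7 and less Myh2 than either.

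**Figure D3:**
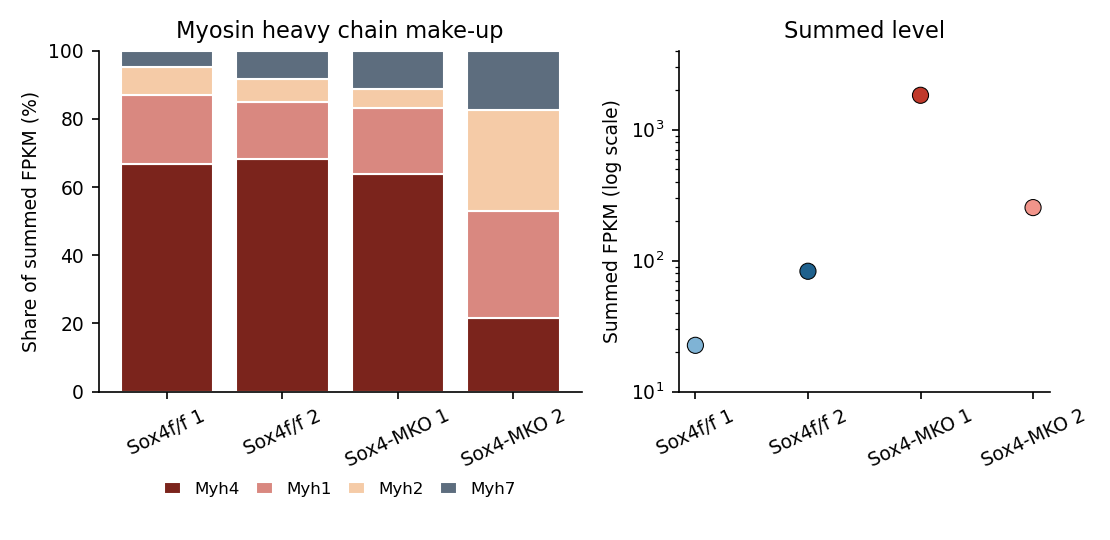
Left, share of the summed FPKM of Myh4, Myh1, Myh2 and Myh7 taken by each gene in the 4 libraries, in percent. Right, their summed FPKM on a log axis. Myh4 takes 63.7% to 68.1% in 3 libraries and 21.7% in Sox4-MKO mouse 2, whose summed level of 254 FPKM lies between those of Sox4f/f mouse 2 and Sox4-MKO mouse 1.

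Besides the heavy chains, 5 of the 10 genes, the troponins and light chains, were paired with a well-known slow counterpart. These counterparts were picked after their values had been seen. In Sox4f/f the fast gene made up 93.5% to 98.2% of each pair's FPKM in mouse 1 and 94.1% to 96.3% of 4 pairs in mouse 2, where Mylpf was at 78.7% of its pair with Myl2. In the libraries labelled Sox4-MKO the fast gene still led all 5 pairs, with 79.6% to 89.95% in mouse 1 and 77.0% to 90.6% in mouse 2. The fast share was lower in both of these libraries than in both Sox4f/f libraries for the 3 troponin pairs and for Myl1 with Myl3, and the groups overlapped for Mylpf with Myl2. For troponin C the shares were 94.6% and 96.3% against 86.3% and 81.8%, with the slow Tnnc1 at 1.46 and 3.40 FPKM against 246 and 65.5 FPKM.

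**Figure D4:**
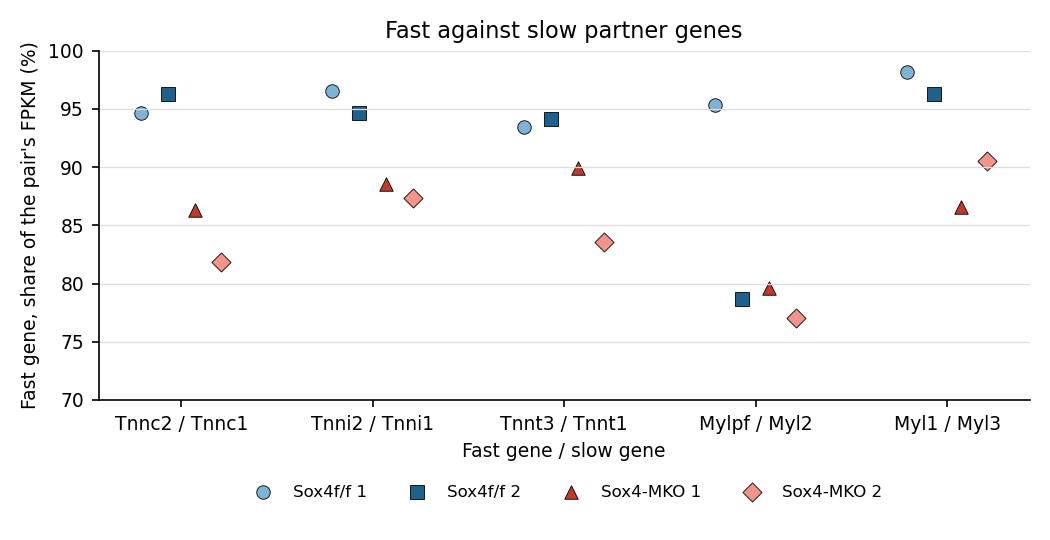
Share of the fast gene in the summed FPKM of a fast and slow pair, in percent on an axis from 70 to 100, for 5 pairs in the 4 libraries. The fast gene is at or above 77.0% everywhere, and the 2 libraries labelled Sox4-MKO lie below both Sox4f/f libraries at 4 of the 5 pairs.

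Beyond the 10 genes, 5 lists of striated muscle genes with 100 genes in all were examined in a limma fit over all genes tested, and 89 of them passed the filter on low values, 23 only through the libraries labelled Sox4-MKO. Of the 89, 78 were higher under the Sox4-MKO label with an unadjusted p under 0.05 and 0 were lower, against 7.95% higher and 8.28% lower of all genes tested. A gene that entered only through the higher group had to differ, and 18 of the 78 were such genes, so the count is also given with no filter on low values. All 100 listed genes then entered, 78 were higher and 0 lower, with a median log2 difference of 2.78, against 5.9% higher and 5.65% lower of 22285 genes. The lists were written with results of these data known and are no independent evidence. None of the 89 had a Benjamini-Hochberg adjusted p under 0.05 (lowest 0.191, limma), and 0% of all genes did. The median log2 difference of the 89 was 2.96 with all libraries, 2.44 without Sox4f/f mouse 1 and 2.00 without Sox4-MKO mouse 1. Scaled to a common sum without mitochondrially encoded genes and Ucp1, 80 of the 89 were higher, but the split over all genes moved from 1024 higher and 1066 lower to 1322 and 746.

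**Figure D5:**
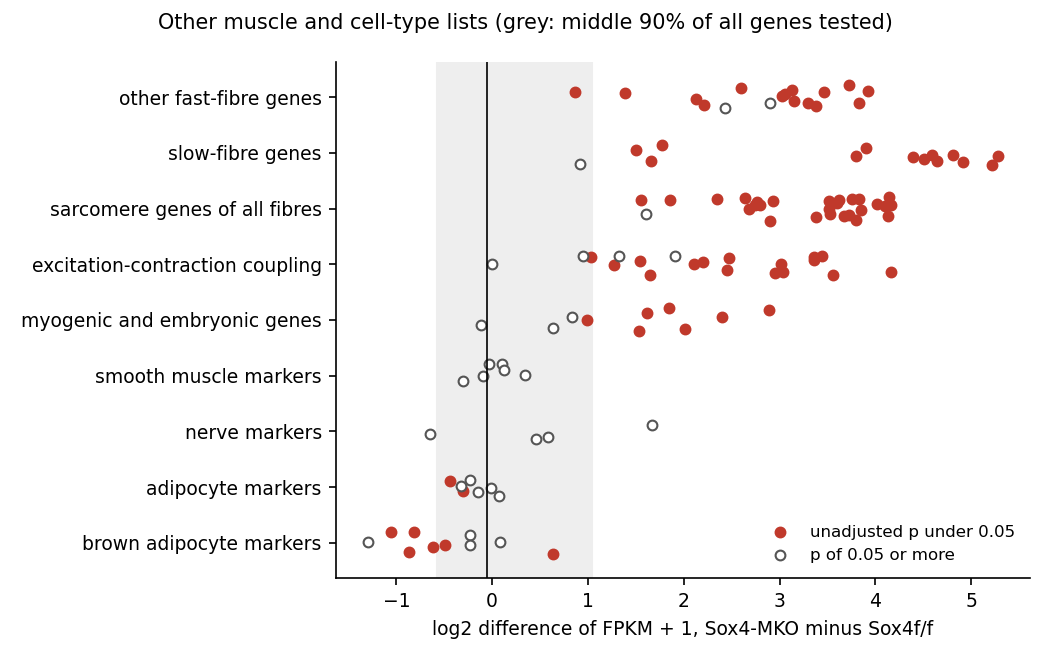
Difference between genotypes in log2(FPKM + 1), 1 point per gene tested, for the 5 muscle lists and 4 lists of other cell types, filled where the unadjusted limma p was under 0.05. The grey band holds the middle 90% of all genes tested, from -0.58 to 1.04, and the line their median of -0.05; the muscle lists lie mostly to its right, the adipocyte lists within it or to its left.

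Of 18 other fast-fibre genes 17 were tested, 15 were higher at an unadjusted p under 0.05, and their median log2 difference was 3.05. With no filter 14 of the 18 were higher. Among the 3 most abundant were Atp2a1, the fast calcium pump (58.1 ± 52.9 FPKM against 897 ± 939 FPKM, SD, n = 2 each), and the glycolytic enzymes Eno3 (32.3 ± 19.1 against 353 ± 350 FPKM) and Pgam2 (13.4 ± 12.7 against 232 ± 239 FPKM). The 2 that missed the threshold, named for that reason after their values were seen, were Mybpc2, the fast myosin-binding protein C, and Mylk4, a myosin light chain kinase. Mybpc2 had 2.50 and 6.66 FPKM against 172 and 7.68 FPKM, and Mylk4 had 0.58 and 1.49 FPKM against 37.8 and 1.94 FPKM. Their ratios of Sox4-MKO mouse 1 to mouse 2, 22.4 and 19.5, were the highest among the tested genes of the 5 lists that were above 0 in both libraries, where the median was 3.75. Among the 10 genes the highest such ratios were those of Myh4 (21.1), Actn3 (15.9) and Pvalb (10.7).

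All 14 slow-fibre genes were tested and 13 were higher at an unadjusted p under 0.05, 1 of them admitted only through the higher group. The count was again 13 with no filter. Their median of 4.45 was above that of the other fast-fibre genes, a difference between lists that was not tested. Myl2, the slow regulatory light chain, had 1.20 and 18.3 FPKM against 510 and 114 FPKM. Tpm3 had 48.0 and 50.8 FPKM against 277 and 105 FPKM. Atp2a2, a calcium pump of slow fibres that other cells also use, had 69.9 and 72.7 FPKM against 195 and 94.4 FPKM and an unadjusted p of 0.054 (limma).

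Of 28 sarcomere genes of all fibres, 27 were higher at an unadjusted p under 0.05, with a median of 3.52 and the same count of 27 with no filter. Acta1, skeletal actin, had 59.9 and 226 FPKM against 4512 and 898 FPKM, a log2 difference of 4.10 (SE 0.99, adjusted p = 0.216 by limma). Ckm, the muscle creatine kinase, had 26.4 and 116 FPKM against 1755 and 274 FPKM, and Tpm2 had 18.9 and 68.3 FPKM against 912 and 221 FPKM. Mb, the oxygen store of oxidative fibres, stood out after its values were seen: its libraries labelled Sox4-MKO were almost level, at 485 and 437 FPKM, against 16.4 and 38.0 FPKM.

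Of 22 genes of excitation-contraction coupling, which carry the nerve signal to the calcium store, 20 were tested and 16 were higher at an unadjusted p under 0.05, 4 of them admitted only through the higher group. With no filter 15 of the 22 were higher, with a median of 2.15. Srl had 15.9 and 14.6 FPKM against 141 and 25.3 FPKM and missed the threshold (unadjusted p = 0.069, limma). Trdn had 4.63 and 3.20 FPKM against 91.2 and 29.4 FPKM, and Asph had 17.2 and 15.2 FPKM against 48.3 and 33.8 FPKM. Of 18 myogenic and embryonic genes only 10 were tested, and 7 of these, with 5 of the 7 that were higher, passed the filter only through the libraries labelled Sox4-MKO. With no filter 9 of the 18 were higher, with a median of 0.77. Des, the muscle intermediate filament, had 29.0 and 36.8 FPKM against 231 and 78.8 FPKM. Mef2c had 5.02 and 6.77 FPKM against 33.3 and 16.6 FPKM, whereas its relative Mef2a had 27.6 and 21.3 FPKM against 22.1 and 22.6 FPKM. The embryonic Myh3 had 0.04 and 0.02 FPKM against 0.43 and 1.31 FPKM. The perinatal Myh8 was listed at 0 in both controls and had 0.10 and 0.66 FPKM in the others. Neither was tested, and both were higher in Sox4-MKO mouse 2 than in mouse 1, unlike the 10 genes.

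Without Sox4-MKO mouse 1 the median log2 differences of the 5 lists, in the order described, were 1.81, 3.54, 2.47, 1.24 and 1.305. Over all genes tested the median was then -0.088. Without Sox4f/f mouse 1 the medians of the lists were 2.43, 3.63, 2.72, 2.07 and 1.53, against -0.028 over all genes tested. The filter was still that of all 4 libraries, so genes admitted only through the higher group stay in these medians.

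Markers of other cell types moved with the 10 genes only in part. The summed level of 5 muscle satellite cell markers was 0.13 and 0.38 FPKM in the controls, and 3.64 and 2.44 FPKM under the Sox4-MKO label. Of the 5 only Myod1 passed the filter on low values. At 4 of them both libraries labelled Sox4-MKO were above both controls. The 21.7% seen for that order covers only genes that passed the filter, so it is no matched share for genes near 0 FPKM. The most abundant, the myogenic factor Myod1, had 0.08 and 0.23 FPKM against 2.87 and 2.22 FPKM. Myf5 was listed at 0 in both controls and had 0.43 and 0.07 FPKM in the others, and Megf10 had 0.06 and 0.13 FPKM against 0.14 and 0.09 FPKM. The 6 markers of tendon and fascia summed to 0.61 and 0.72 FPKM against 9.13 and 5.69 FPKM. The same order held at 4 of them, but only Thbs4 passed the filter, so the 21.7% is again no matched share. Thbs4 led with 0.15 and 0.08 FPKM against 5.72 and 4.19 FPKM. The tendon factor Scx had 0.07 and 0.15 FPKM against 1.29 and 0.65 FPKM, and Fmod had 0.23 and 0.38 FPKM against 0.85 and 0.38 FPKM. The part of either cell type in the levels of the 10 genes was not tested.

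Of 8 cardiac markers Myl7, Mybpc3, Nppa and Nppb were listed at 0 in all 4 libraries. Actc1, which skeletal muscle also makes, had 0.41 and 0.22 FPKM against 65.0 and 2.57 FPKM. Tnnt2 was listed at 0 in both controls and had 0.51 and 1.08 FPKM in the others, and Tnni3 had 0.75 and 0.10 FPKM against 0.32 and 0.12 FPKM. Apart from Actc1, no cardiac marker was above 1.08 FPKM in any library.

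Smooth muscle markers did not separate the groups. Their sum over 6 genes was 51.6 and 69.9 FPKM against 60.0 and 65.5 FPKM, and 0 of the 6 had an unadjusted p under 0.05. Acta2 had 14.9 and 21.2 FPKM against 16.9 and 22.5 FPKM, Smtn 13.8 and 20.8 FPKM against 18.9 and 14.5 FPKM, and Tagln 14.0 and 18.5 FPKM against 15.3 and 19.5 FPKM. Nerve markers, 5 genes, summed to 64.6 and 61.4 FPKM against 89.2 and 62.3 FPKM, with 0 of the 4 tested under that threshold. S100b had 24.2 and 42.8 FPKM against 25.6 and 15.9 FPKM. The myelin gene Mbp did not overlap between the groups, with 19.9 and 13.6 FPKM against 29.7 and 21.4 FPKM.

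Adipocyte genes went the other way or did not separate. The 10 brown adipocyte markers summed to 7833 and 7625 FPKM against 3844 and 4717 FPKM. At an unadjusted p under 0.05 by limma, 5 were lower and 1, Lhx8, higher, against 8.28% lower and 7.95% higher of all genes tested. Lhx8 passed the filter only through the libraries labelled Sox4-MKO. Cox8b, a subunit of cytochrome c oxidase, had 3317 and 3181 FPKM against 1670 and 2027 FPKM, and the lipid droplet gene Cidea had 1742 and 1849 FPKM against 989 and 984 FPKM. The 7 general adipocyte markers summed to 10587 and 11033 FPKM against 9030 and 11946 FPKM, with 2 of them lower and 0 higher at an unadjusted p under 0.05. The fatty acid binding protein Fabp4 had 5801 and 6334 FPKM against 5416 and 7518 FPKM, and the lipase Pnpla2 had 1624 and 1589 FPKM against 1100 and 1278 FPKM. Within the Sox4-MKO label the library with more of the 10 genes had less of both adipocyte sums, while in Sox4f/f these sums went opposite ways. The part of fat cell content in the levels of the 10 genes was not tested.

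The genes nearest to the 10 in pattern over the 4 libraries were found by the Euclidean distance between a gene's deviations from its own mean and the median deviations of the 10 genes, on the scale of log2(FPKM + 1). In order of distance, from 0.13 to 0.37, they included Eef1a2, Ldb3, Tcap, Acta1, Casq1, Pgam2, Xirp2, Tpm2 and Ckm. Of those named, all but Eef1a2, a translation elongation factor made in muscle and neurons, were on the muscle lists. Eef1a2 had 1.68 and 7.32 FPKM against 155 and 30.2 FPKM. Among the 10 genes Tnnc2, Tnni2 and Tnnt3 lay within 0.14 of the median pattern, whereas Actn3, Myh2 and Myh4 lay 1.42 to 1.58 from it.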

How the data were processed

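BAT RNA of 4 mice was sequenced in 4 libraries, 2 per genotype, and grouped by the titles. The authors deposited FPKM values by gene symbol for each library, in 55387 rows with 55287 different symbols, of which 66 stand on more than 1 row. The submitters' processing notes name Cufflinks 2.1.1, Cuffdiff and mm10, and the aligner and gene annotation are not given in the sources used here. RNA was column-purified and the library stranded per the labels, whereas the paper's methods give TRIzol and a TruSeq v2 library, and whether strand was used in counting is not stated. FPKM are relative to each library, so a very abundant gene lowers all others.

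Members, lists and tests were chosen with earlier results of these data known. The 12877 genes whose FPKM averaged over 1 in either genotype or both entered limma 3.58.1 (R 4.3.3), fitted to log2(FPKM + 1) by genotype alone with a trended prior and Benjamini-Hochberg adjustment over all of them. p-values are two-sided. Log2 differences on this scale understate the change of low genes. The code was tested on simulated data. An exact 0 can be a failed estimate and is given as listed at 0. Depth was estimated from the step of the lowest values of genes with 1 transcript of at least 1500 nt, and is approximate. Counting error covers counting only. Named are the 10 genes, Sox4, Ucp1, Adipoq, the 3 genes of highest mean FPKM in each list and the 10 nearest in pattern, except 2 that are not reported here, and further ones are said to be chosen later. Alternatives were 3 other scalings, a pseudocount of 0.1, no filter, a limit of 5, no trend, a replicate block and leaving out each library. Positions and coding sequences are from GENCODE M21 (GRCm38), matched by symbol (53288 of 55287 symbols), promoter windows from RefSeq (GRCm38.p6), with coding and promoter alignments by mafft 7.526.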

Additional observations from a re-analysis of the deposited data

How the results depend on the processing

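The log2 ratio of the summed FPKM of the 10 genes, 4.002, was 3.93 to 4.11 under the 3 other scalings, 4.05 as the median of the 10 ratios and 3.97 without Myh1, Myh2 and Myh4. With each library left out in turn it ranged from 2.33 (without Sox4-MKO mouse 1) to 5.02. No direction changed at any of the 10 genes, but without Sox4-MKO mouse 1 the ratio moved by more than the spread between replicates at 9 of them, down to 0.62 on the log2 scale at Myh4, and without Sox4f/f mouse 2 it did so at the other, Myh2 (5.58 against 4.55). The count of genes with an unadjusted p under 0.05, 2090, ranged from 813 (without Sox4f/f mouse 1, with 1 gene past the adjusted threshold) and 1063 (without Sox4f/f mouse 2, with 4) to 2258 with a library left out, where the single library of a genotype is assumed to vary like the pair of the other. That of the 5 muscle lists, 78, ranged from 27 to 87. Other alternatives kept both counts within 1.5 times. With a replicate block the counts were 1908 and 77. The differences between mouse 1 and mouse 2 of the genotypes had a correlation of -0.012 over 12877 genes. This value cannot show whether mice of the same number shared a litter or a batch, and the labels do not say. For the 10 genes the spread between mice exceeded counting error, whereas markers near 0 FPKM are also limited by depth.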
